A study of Mus musculus with 4 samples.

Results

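Resting B cells of Tilcara mice were set against resting B cells of wild-type mice, with 1 array for each genotype, so the comparison rests on 2 of the 4 arrays of the series. Both arrays were picked by their titles (non-stimulated Tilcara and non-stimulated wild type) and not by any measured value. The labels call Tilcara a PKCbeta mutant, and the sources used here do not give how the mutation alters the protein or its level. All mice, wild-type controls included, had a C57BL/6 background. Cells came from spleens, thymi and lymph nodes together and were sorted with an antibody to B220. The remaining 2 arrays hold the same kinds of cells after 4 hours with the phorbol ester PMA (10 ng per mL) and the calcium ionophore A23187 (1 µM). They share no array with the resting pair and are used below as a second, stimulated pair. The sources used here do not give the number, age and sex of the mice, whether mice were pooled, or whether resting cells spent time in culture.

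PKCbeta, the product of Prkcb, is the main classical protein kinase C of B cells. After the antigen receptor is engaged it links the receptor's signal to the activation of NF-kB. Mice that lack PKCbeta are known for few B-1 cells, self-renewing B cells that secrete natural antibodies, and for weak responses to some antigens. B220 is carried by most mouse B cells and by plasmacytoid dendritic cells, while neutrophils, macrophages and most T cells do not carry it.

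Each value is a log2 signal, so that a difference of 1 is 2-fold, and differences are Tilcara minus wild type throughout. A gene was used when it exceeded 3.83 in at least 1 of the 4 arrays, the median of all named probe sets and called the floor here. Of 22180 named genes, 12456 passed this. A signal below the floor is hard to tell from background, and a fold that involves one is approximate. With 1 array per group there is no replicate spread, so no difference within the resting pair has a test, and the words higher and lower describe single arrays. In bulk samples, fewer cells of a type and less RNA per cell cannot be told apart.

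The B cell label held in both arrays. The 17 used genes of the B cell identity list had signals from 7.90 to 11.39 at rest, and their median difference was −0.01. Cd79a and Cd79b, the signalling chains of the antigen receptor, read 11.00 and 11.39 in wild type and 10.95 and 11.23 in Tilcara. Ms4a1, which encodes CD20, read 10.64 and 10.81. The list's largest difference was that of Bach2, a repressor of plasma cell differentiation, at 8.55 in wild type and 7.90 in Tilcara. Prkcb itself read 9.42 and 9.39, and since a mutant other than a deletion can keep its transcript this checks nothing about the genotype labels.

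The arrays were close to each other. Pearson's r between them was 0.978 over all probe sets, which do not serve as replicates. The central 95% of gene differences ran from −0.65 to 0.63. At 2-fold or more, 53 genes were higher in Tilcara (0.425% of those used) and 82 were lower (0.658%), together 135 genes (1.08%). Centring each array on its own median moved this split to 68 higher and 68 lower. The weak signals held most of these genes, since 71 of the 135 had at least 1 resting signal below the floor, 6 of them both. Among the 7401 genes with a signal of at least 5 in both resting arrays, 15 were higher and 12 lower, together 0.365%. The SD of the differences was 0.40 for genes with a mean resting signal below 4 and 0.19 for the 1469 genes at 8 or above. Of those 1469 genes, 3 were 2-fold higher and 0 lower.

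**Figure D1:**
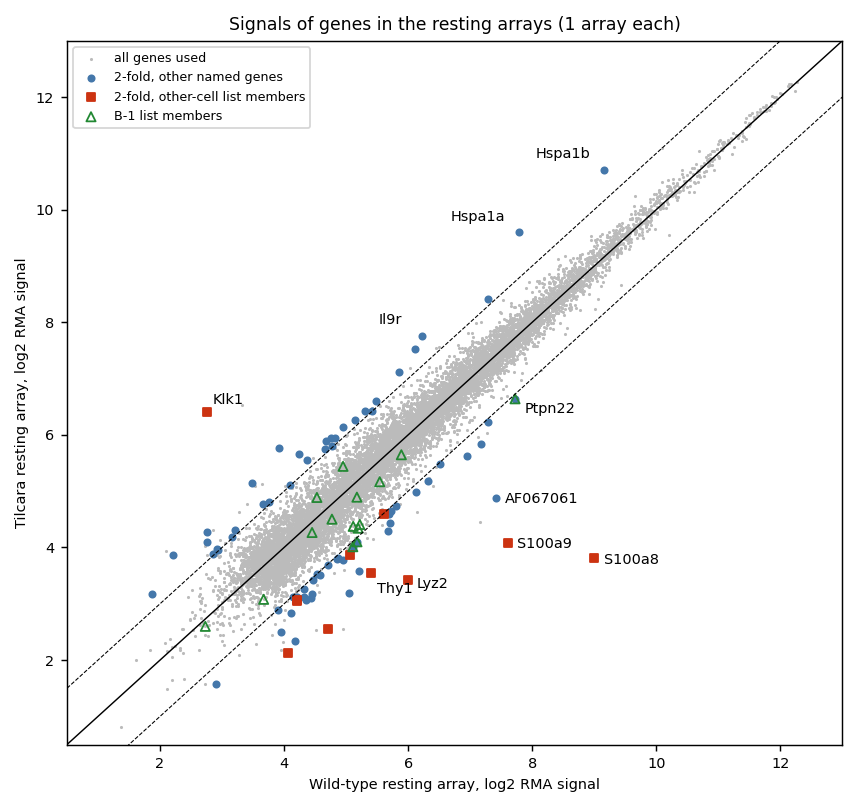
Log2 signal of the 12456 genes used in the resting wild-type array (horizontal) and the resting Tilcara array (vertical), 1 point per gene and 1 array per axis. Dashed lines mark 2-fold differences, coloured points the 2-fold genes by kind and triangles the B-1 list. Genes such as S100a8 (9.004 in wild type, 3.81 in Tilcara) and Klk1 (2.75 and 6.41) lie far outside the lines, while most 2-fold genes lie near the floor.

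By kind of gene, the 2-fold differences were unevenly spread. Of 239 small RNA genes, 18 differed 2-fold, 6 higher and 12 lower (7.53%). Of 86 olfactory and vomeronasal receptor genes, 2 were higher and 4 lower (6.98%). Of 102 used members of the lists for other cell types, 1 was higher and 10 were lower (10.8%), against 32 higher and 36 lower of 11058 other named genes (0.615%). These lists were chosen with earlier results of these data known, and the kinds were not matched for signal. The 2-fold share over all genes was 2.46% below a mean resting signal of 4 and 0.204% at 8 or above. Leaving out every member of the other-cell lists gave 52 higher and 72 lower genes.

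Transcripts of neutrophils, the phagocytes that fill their cytosol with S100a8 and S100a9 (the subunits of calprotectin), were lower in the Tilcara array. Of the 35 list members with a probe set, 16 were used. Of these, 13 were lower by any size, where 47.6% of all genes were, and 5 were lower by 2-fold or more, where 0.658% were. Their median difference was −0.45, against 0.02 over all genes used, and −0.43 when the filter on low signals was left out. S100a8, Il1b and Stfa2l1, all 2-fold lower, exceeded the floor in resting wild type alone. For such genes the filter favours a lower value in Tilcara. Summed on the linear scale, the whole list had a signal of 1557 in wild type and 861 in Tilcara at rest, and of 359 and 321 after stimulation. The sum was thus highest in resting wild type, and most of the resting Tilcara sum came from Pglyrp1 and Wfdc21.

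S100a8 read 9.004 in resting wild type, 3.81 in resting Tilcara, and 2.75 and 2.36 in the stimulated wild-type and Tilcara arrays. S100a9 read 7.61, 4.09, 3.48 and 2.47 in the same order. Il1b, an inflammatory cytokine of activated myeloid cells, read 4.70, 2.54, 3.36 and 2.79. In all of these the resting wild-type array stood above the other 3, which lay close to or below the floor. Resting wild type was highest for Slpi too, a secreted inhibitor of neutrophil elastase, at 5.60 and 4.60 at rest, and 4.05 and 4.55 after stimulation. Slpi stayed above the floor in all 4 arrays. Other members did not follow. Pglyrp1, a peptidoglycan-binding protein of granules, read 8.20 and 8.56, and Wfdc21 read 7.24 and 7.53, both higher in Tilcara. The remaining 19 members, among them the granule genes Ltf, Camp and Ngp and the surface marker Ly6g, stayed below the floor in all 4 arrays. AF067061, which is on none of the lists, was also highest in resting wild type, at 7.41. Unlike S100a8 it stayed above the floor in resting Tilcara, at 4.88, and it read 2.75 and 2.51 after stimulation.

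Macrophage transcripts differed less. Of 23 used members, 19 were lower in Tilcara, with a median of −0.28, and 2 were lower by 2-fold, against 47.6% and 0.658% over all genes. Lyz2, the lysozyme of macrophages and neutrophils, read 5.99 in wild type and 3.43 in Tilcara. Treml4, a receptor of splenic myeloid cells, read 4.21 and 3.07. Adgre1, which encodes the F4/80 antigen, read 4.70 and 3.79. Lyz2, Treml4 and Adgre1 exceeded the floor in resting wild type alone, where the filter favours a lower value in Tilcara. Without the filter the list's median was −0.27. The complement genes C1qa and C1qb, which macrophages of the spleen make in large amounts, were low in both arrays, at 4.93 and 4.66 in wild type and at 4.87 and 4.36 in Tilcara. The summed list signal was 851 in wild type and 690 in Tilcara.

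T cell transcripts were also lower, from low signals. Of 18 used members of the T cell list, 15 were lower in Tilcara (47.6% over all genes), 2 of them by 2-fold (0.658% over all genes), with a median of −0.50. Thy1, a surface glycoprotein of all mouse T cells, read 5.40 in wild type and 3.54 in Tilcara at rest, and 5.01 and 3.84 after stimulation. Cd3g, Cd3d and Cd3e, chains of the T cell receptor complex, had resting differences of −1.16, −0.50 and −0.39. Lat, an adaptor of that receptor, differed by −0.75 at rest and −0.73 after stimulation. No member exceeded 5.62 in either resting array. Cd3g and Cd8b1 exceeded the floor in resting wild type alone, where the filter favours a lower value in Tilcara. Without the filter the T cell median was −0.43. All 4 used thymocyte genes were lower as well (47.6% over all genes), with Endou at 4.90 and 3.98. Ptcra, the pre-T cell receptor alpha chain, read 4.92 and 4.38. The 1 T cell receptor segment with a 2-fold difference, Trav9d-3, read 7.16 in wild type and 4.46 in Tilcara by its brightest probe set, and differed by −0.29 by the probe set with the smallest difference of its 3.

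Lists of the remaining cell types were mixed. The NK cell list had a median of 0.07 with 4 of 12 members lower, and its summed signal was 898 in wild type and 927 in Tilcara. Ccl5, a chemokine of NK and T cells, read 8.71 and 8.81, and Klrd1, which encodes CD94, read 5.85 and 6.04. Among the lower members, Klre1 read 4.75 and 4.07 and Xcl1 read 6.91 and 6.47. All 12 basophil and mast cell genes stayed below the floor in every array. Of 9 used stromal, endothelial and epithelial genes 8 were lower (47.6% over all genes), with a median of −0.15. The only conventional dendritic cell gene past 2-fold was Dnase1l3, a secreted DNase, at 5.05 and 3.86. The 4 used platelet genes had a median of 0.24, with the platelet chemokine gene Ppbp at 4.35 and 5.14.

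Plasmacytoid dendritic cells, which carry B220 and so can pass the sort, were the list with the 1 member higher by 2-fold. Klk1, a tissue kallikrein gene that these cells express, read 2.75 in resting wild type and 6.41 in resting Tilcara, a 12.6-fold difference, and 2.17 and 2.09 in the stimulated arrays. Cox6a2, a cytochrome oxidase subunit typical of these cells in the immune system, read 5.12 and 6.10. Siglech, the receptor that defines them in mouse, read 4.93 and 5.06, a difference of 0.12. The list's median was 0.16, and 1 of its 7 used members was lower. Klk1 exceeded the floor in resting Tilcara alone, so the filter favours a higher value for it. Of the 23 other kallikrein genes with a probe set, 8 exceeded the floor, none of these was above 4.94 at rest, and their resting differences ran from −0.27 to 0.72, the highest being that of Klk1b27. The Klk1 signal was therefore high in 1 array of 4, and none of those 8 relatives differed by 2-fold. The part of any other cell type in the differences described next was not tested.

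**Figure D2:**
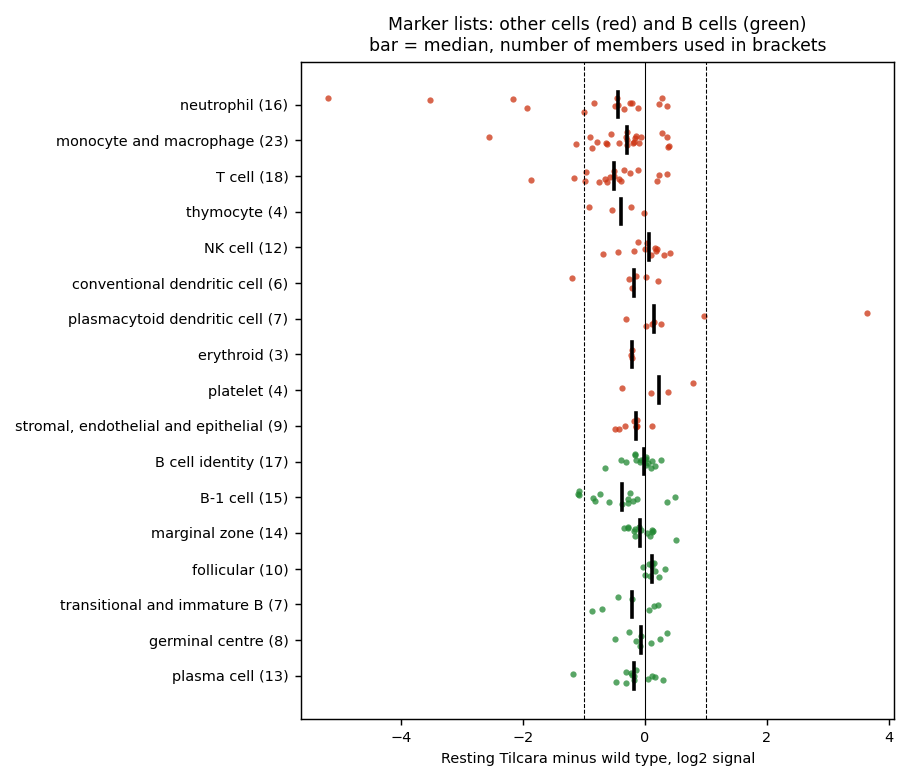
Resting differences (Tilcara minus wild type, log2) of the used members of the marker lists for other cell types and for B cell subsets, 1 point per gene, with the list median as a bar. Medians of neutrophil (−0.45), macrophage (−0.28), T cell (−0.50) and B-1 (−0.37) genes lie below 0, while those of B cell identity (−0.01) and NK cell (0.07) genes lie near it.

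Most genes of the B-1 list were lower in the Tilcara array, several of them by small amounts. Of 18 members, 15 were used, 13 of these were lower, where 47.6% of all genes were, and 3 were lower by 2-fold, where 0.658% were. The list had a median of −0.37 at rest and of −0.48 after stimulation, and 11 members were lower in both pairs. The share of all genes lower in both pairs was not counted. B-1 cells share several of these genes with T cells, and T cell transcripts were lower too. A shorter list was therefore made after the values were seen. It left out Cd5, Spn, Ptpn22, Tbx21, Ctla4, Itgb1 and Ahr, which T cells also express. Whether T cells, macrophages or other cells express the members left was not checked, so the shorter list does not set B-1 cells apart from them. Of the 8 members left, 7 were lower, against the same 47.6%, with a median of −0.27.

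Among members that T cells also express, Ptpn22, a phosphatase that damps antigen receptor signals, read 7.72 in resting wild type and 6.64 in resting Tilcara, and after stimulation was the other way round, at 9.89 and 10.40. Ahr, the aryl hydrocarbon receptor, read 5.17 and 4.10 at rest, and 9.43 and 9.12 after stimulation. Cd5, the surface glycoprotein that separates B-1a cells from other B cells, read 5.22 and 4.41 at rest, and 5.52 and 5.25 after stimulation. Tbx21, which encodes the transcription factor T-bet, read 5.19 and 4.34 at rest and 8.96 and 8.26 after stimulation. All of these but Ptpn22 were lower in Tilcara in both pairs.

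Among the other members, Atxn1 read 5.11 and 4.01 at rest, and 4.65 and 4.53 after stimulation. Anxa2, a membrane-binding annexin, read 5.11 and 4.37 at rest and 4.23 and 3.50 after stimulation. The difference was of nearly the same size in both pairs, though 3.50 lies below the floor. Bhlhe41, a transcription factor needed for B-1a cells, read 5.17 and 4.89, Arid3a 4.77 and 4.50, and the Fc receptor-like gene Fcrl5 5.89 and 5.65. Zbtb32 read 4.45 and 4.27. The differences of Bhlhe41, Arid3a, Fcrl5 and Zbtb32, from −0.18 to −0.28, were no larger than the pooled SD of 0.30 between probe sets of 1 gene. Plscr1 and Ctla4 lay below the floor in both resting arrays and were used only because of their stimulated signals. Of the 7 lower members of the shorter list, only Atxn1 and Anxa2 thus had a larger resting difference above the floor. Pdcd1lg2, which encodes PD-L2, and the integrin chain gene Itgb1 were higher in Tilcara at rest, by 0.36 and 0.49. Cd300lf, Cd80 and Nt5e stayed below the floor. Summed, the list's signal was 691 in wild type and 472 in Tilcara.

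**Figure D3:**
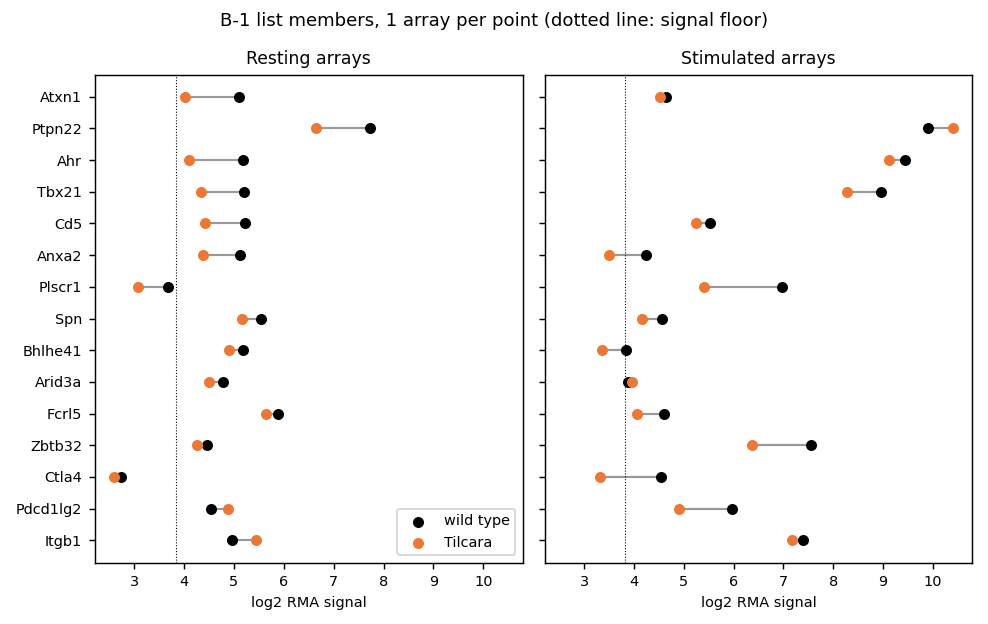
Log2 signals of the 15 used B-1 list members in the 4 arrays, 1 array per group, with the genotype of each point given by its colour and the floor of 3.83 as a dotted line. At rest 13 members lie lower in Tilcara than in wild type, and the largest gaps are those of Atxn1 (5.11 and 4.01), Ptpn22 (7.72 and 6.64) and Ahr (5.17 and 4.10).

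Lists of the other B cell subsets differed less than the B-1 list. For marginal zone genes the median was −0.07, with 8 of 14 lower. Their receptor Cr2, which binds complement, read 9.87 and 9.99, and Notch2, whose signal forms the subset, 8.19 and 7.85. Hes1, a target of Notch, read 7.20 and 7.71. Of 10 follicular genes only Tnfrsf13c, the receptor for the survival factor BAFF, was lower (9.72 and 9.70), with a list median of 0.12. Over all genes, 47.6% were lower. The low-affinity IgE receptor gene Fcer2a read 10.80 and 10.93, and the homing receptor gene Ccr7 read 8.89 and 9.23. For transitional and immature B cell genes the median was −0.21. There Myb, a transcription factor of progenitors, read 6.95 and 6.08, and Lef1 read 5.93 and 5.24, while Cd24a and Vpreb3 differed by 0.06 and 0.15. For germinal centre genes it was −0.07, with Bcl6, the master regulator of that stage, at 8.10 and 7.97.

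Among 13 used plasma cell genes, 9 were lower in Tilcara, where 47.6% of all genes were, and the median was −0.18. Jchain, the chain that joins IgM and IgA into polymers, read 4.95 in wild type and 3.78 in Tilcara at rest and 4.44 and 3.44 after stimulation. Fkbp11, a folding factor of secretory cells, read 5.76 and 5.29, while the plasma cell regulators Xbp1 and Prdm1 differed by 0.06 and −0.31. Most immunoglobulin genes were higher in Tilcara. Of 6 used heavy chain genes, 5 were higher in Tilcara (52.2% over all genes), with a median of 0.65. Past 2-fold were 2 variable segments, where 0.425% of all genes were higher by that size. Of these, Igh-VS107 had the clearer signal (6.45 and 7.55). A further probe set of Igh-VS107 differed by −0.70. Ighm, the constant region of IgM, read 11.85 in both arrays. Of 14 kappa genes 3 were lower, with a median of 0.20, and the only lambda gene used, Iglv1, was lower, at 8.82 and 8.51. Variable segments are close copies of each other, and their probe sets may not separate them.

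Outside the marker lists, a group of genes with clear signals was higher in Tilcara. Il9r, the interleukin-9 receptor, read 6.22 in wild type and 7.76 in Tilcara at rest, and 4.55 and 4.78 after stimulation. Ifi208, an interferon-inducible gene of the p200 family, read 7.28 and 8.42 at rest and 3.01 and 5.60 after stimulation, higher in both pairs. Trib1, a pseudokinase that targets C/EBP factors for degradation, read 5.14 and 6.27, and Lgals4, a galectin, read 5.48 and 6.61. Cks2, a small partner of cyclin-dependent kinases, read 6.10 and 7.53, and its 4 probe sets differed by 0.36 to 1.43. Timm8a1, a mitochondrial import chaperone, read 5.85 and 7.12, with its 3 probe sets differing by −0.44 to 1.28. For both genes the size thus depended on the probe set, and of the 7 genes past 2-fold that had several probe sets above the floor, 0 had every set past 2-fold in the same direction.

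Among genes with clear signals that were lower in Tilcara, Mgst2, a microsomal enzyme of glutathione and leukotriene metabolism, read 7.28 and 6.22 at rest and 3.18 and 3.23 after stimulation. Alox5ap, the activating protein of the leukotriene pathway and no member of the named set, read 6.13 and 4.99 by its brightest probe set and differed by −0.05 by the other. Naf1, an assembly factor of H/ACA ribonucleoproteins, read 6.33 and 5.18. Phxr4 read 7.17 and 5.84, and Sez6l2, a membrane protein studied mainly in neurons, 5.68 and 4.30. None of Mgst2, Naf1, Phxr4 and Sez6l2 was 2-fold lower in the stimulated pair.

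Heat shock genes were higher in the resting Tilcara array. These genes encode chaperones that refold proteins, and the transcription factor Hsf1 drives them through inverted repeats of nGAAn. Of 16 used members, 13 were higher, where 52.2% of all genes were, and 2 were higher by 2-fold, where 0.425% were. These 2 were Hspa1a and Hspa1b, which encode the inducible Hsp70. Hspa1a read 7.79 in wild type and 9.60 in Tilcara at rest, and 7.89 and 6.10 after stimulation. Hspa1b read 9.15 and 10.71 at rest, and 8.48 and 6.68 after stimulation. The resting Tilcara array was the highest of the 4 for both genes and the stimulated Tilcara array the lowest. Hsph1, a nucleotide exchange factor of Hsp70, was next with 6.05 and 6.88, then Cacybp with 7.04 and 7.74 and the Hsp90 co-chaperone Chordc1 with 8.07 and 8.73. The constitutive Hspa8 read 11.73 and 11.82, and Hsp90aa1 7.19 and 7.07. The list median was 0.25 at rest and −0.01 after stimulation.

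The 250 bases before the start of Hspa1a and of Hspa1b are shown because Hspa1a and Hspa1b had genotype differences close to each other at rest and again after stimulation, and capitals mark the heat shock type motif found in them. They are from RefSeq's mouse assembly GRCm38.p6, minus strand, at chr17:34972157-34972406 and chr17:34959239-34959488.
Hspa1a: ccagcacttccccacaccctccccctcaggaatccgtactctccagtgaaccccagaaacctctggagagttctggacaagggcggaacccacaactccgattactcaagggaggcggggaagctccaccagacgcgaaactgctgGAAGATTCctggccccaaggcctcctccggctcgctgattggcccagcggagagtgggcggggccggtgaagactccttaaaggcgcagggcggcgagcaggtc
Hspa1b: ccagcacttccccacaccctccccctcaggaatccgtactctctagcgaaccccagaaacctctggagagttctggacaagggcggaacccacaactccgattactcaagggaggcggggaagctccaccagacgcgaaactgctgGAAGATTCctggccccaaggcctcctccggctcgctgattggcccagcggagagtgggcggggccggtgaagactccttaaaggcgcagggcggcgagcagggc
The windows are identical at 247 positions and differ at 3. The motifs searched were TTCNNGAA and GAANNTTC, each its own reverse complement, and GAANNTTC matched once in each window, starting at position −104 from the gene start. Either motif was present in 12.84% of the 32851 promoter windows of the table. It was present in any window of 7 of the 14 used heat shock genes that have one, Hspa1a and Hspa1b included. The first share counts windows and the second counts genes, so they are not directly comparable. The transcripts of the pair are near copies too, so their probe sets may not separate them and they are better read as 1 signal than as 2.

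Immediate-early genes, which are transcribed within minutes of a stimulus, were higher as a group by small amounts. Of 31 used members, 25 were higher, where 52.2% of all genes were, and 6 were lower. Their median was 0.21, and 0 members were past 2-fold, where 1.08% of all genes were. The AP-1 genes Fos (6.29 and 7.05), Fosb (6.92 and 7.55) and Jun (8.27 and 8.86) and the orphan receptor gene Nr4a3 (4.82 and 5.37) had the larger differences at clear signals. Spry1, a feedback inhibitor of receptor tyrosine kinases, was higher by 0.73 from below the floor, and its relative Spry2 was lower, at 4.76 and 4.04. Egr1 and Egr3, which antigen receptor signals induce, read 7.01 and 7.27 in wild type and 6.81 and 6.87 in Tilcara. For scale, the housekeeping gene Actb read 8.11 and 8.73, a difference about as large as that of Fosb, and the median of 12 housekeeping genes was 0.07. After stimulation the immediate-early list had a median of −0.16.

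**Figure D4:**
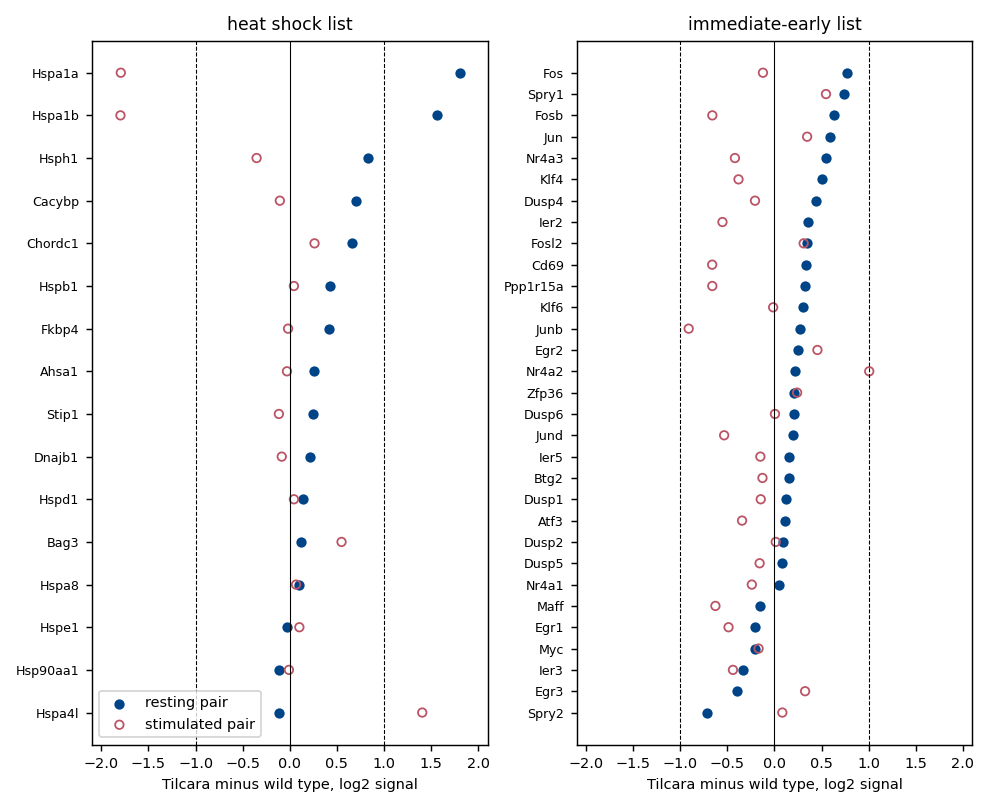
Tilcara minus wild-type differences (log2) of the used heat shock genes and immediate-early genes, at rest and after stimulation, 1 point per gene and pair of arrays. Hspa1a lies at 1.81 at rest and −1.79 after stimulation and Hspa1b at 1.56 and −1.80, while the immediate-early genes lie within 1 of 0 at rest.

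The signalling route that PKCbeta belongs to had 0 members past 2-fold at rest, where 1.08% of all genes were. At that share a list of this length may well hold none. The 28 used genes of antigen receptor and PKC signalling had a median of 0.00 with 14 lower. The kinase genes Syk (8.34 and 8.07) and Btk (8.63 and 8.76) and the NF-kB pathway genes Bcl10 (6.93 and 7.02) and Malt1 (9.42 and 9.48) were close in both arrays. The largest differences were those of the calcium-regulated factors Nfatc1 (7.90 and 7.28) and Nfatc2 (4.88 and 5.50), of opposite sign, and of Pik3cd, the lymphocyte PI3 kinase subunit (7.42 and 6.96). Among other PKC genes the atypical Prkcz read 4.28 and 4.74, and Prkcd, for PKC delta, read 8.97 and 8.91.

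NF-kB targets and regulators had a resting median of 0.07, with 9 of 23 lower and 0 past 2-fold, where 1.08% of all genes were. Nfkbia and Tnfaip3, both feedback inhibitors that NF-kB itself induces, read 9.15 and 6.92 in wild type and 9.20 and 6.87 in Tilcara. Gadd45b was higher, at 7.50 and 8.16, and Ccnd2, the cyclin D that B cells need to enter the cycle, was lower, at 7.35 and 6.80. Bcl2l1, which encodes the survival protein Bcl-xL, read 4.39 and 3.95. In the stimulated pair the same list had a median of −0.55 and 7 of 23 members lower by 2-fold, where 0.747% of all genes were in that pair. Whether the list's resting and stimulated differences differ from each other was not tested.

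Other programmes were near 0. The median of the 10 genes for MHC class II presentation was 0.05, with the class II chain H2-Aa at 11.15 and 11.23. That of interferon-stimulated genes was −0.01, with 14 of 27 lower. Within that list Ifit3 was lower by 2-fold (6.52 and 5.47), whereas its neighbours in function Ifit1 (4.71 and 5.29) and Gbp4 (6.09 and 6.74) were higher. That of cell cycle genes was −0.15, with 16 of 23 lower, where 47.6% of all genes were. The proliferation marker Mki67 led these at 4.98 and 4.17, and Pcna read 9.91 and 10.07.

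Of the 2-fold small RNA genes, 12 were microRNA genes, 2 higher and 10 lower in Tilcara. Over all genes, 0.425% were higher by that size and 0.658% lower. The number of microRNA genes used was not counted, so no share of them is given. Of the 12, 3 had a signal of at least 5 in both resting arrays. The mature forms of those 3 are shown because they carry the microRNA differences at readable signals. They are from RefSeq on GRCm38.p6, with the seed, bases 2 to 8, in capitals.
miR-15a-5p: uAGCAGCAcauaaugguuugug
miR-15a-3p: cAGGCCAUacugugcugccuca
miR-1898: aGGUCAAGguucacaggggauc
miR-467f: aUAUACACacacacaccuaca
No seed is shared among them. Mir15a, a microRNA gene whose main product represses Bcl2 and cell cycle genes, read 6.40 in wild type and 5.09 in Tilcara at rest, and 6.28 and 5.86 after stimulation. Mir1898 read 7.12 and 5.96 at rest and 6.56 and 7.04 after stimulation. Mir467f read 6.33 and 5.23, then 6.11 and 6.37. Mir15a was lower in Tilcara in both pairs, and Mir1898 and Mir467f had opposite signs in the pairs. Bcl2, a target of miR-15a, read 8.91 and 8.88 at rest. The array measures the labelled total RNA at the gene, and the sources used here do not give whether a probe set reads the precursor or the mature form.

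In the stimulated pair, 119 genes were 2-fold higher in Tilcara (0.955%) and 93 were 2-fold lower (0.747%). Of the 82 genes lower at rest, 44 were also lower by any size after stimulation, and of the 53 higher at rest 38 were also higher. The shares of all genes lower or higher by any size in the stimulated pair were not counted. Carry-over between the pairs can therefore not be read from these counts. Past 2-fold with the same sign in both pairs were 7 genes, 0.0562% of those used, 5.19% of the resting 2-fold genes and 3.30% of the stimulated ones. Lower in both were S100a9, Thy1, Jchain, Ifitm2 and Havcr1, and higher in both were Ifi208 and the small nucleolar RNA gene Snora2b. Ifitm2, an interferon-induced membrane protein that restricts virus entry, read 5.05 and 3.19 at rest and 7.84 and 5.97 after stimulation. Both differences were nearly the same, but the resting one is approximate, since 3.19 lies below the floor. Havcr1, which encodes TIM-1, a marker of regulatory B cells that activated T cells also carry, read 4.35 and 3.07 at rest and 5.65 and 4.04 after stimulation. S100a9 and Thy1 belong to the neutrophil and T cell lists, and both stimulated signals of S100a9, 3.48 and 2.47, lay below the floor. Thy1, Jchain and Havcr1 lay below it in resting Tilcara, at 3.54, 3.78 and 3.07, and Jchain in stimulated Tilcara too, at 3.44. Snora2b did so in resting wild type, at 2.85, and Ifi208 in stimulated wild type, at 3.01. Each of the 7 genes thus had an approximate fold in at least 1 pair.

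Many of the 2-fold resting genes had 1 resting array apart from each of the other 3. A gene that stimulation lowered or raised in both genotypes can meet this too. Mgst2, for example, read 7.28 and 6.22 at rest and 3.18 and 3.23 after stimulation. Of the 82 lower genes, 34 were at least 2-fold higher in resting wild type than in each of the other 3 arrays, and of the 53 higher genes, 27 were at least 2-fold higher in resting Tilcara than in each of the others. A further 19 of the lower genes were at least 2-fold lower in resting Tilcara than in each of the other 3 arrays, and 10 of the higher genes were so in resting wild type. Without all of these, 16 higher and 29 lower genes were left, a version made after the values were seen. The genes left out include Ifi208, Ifitm2, Snora2b and S100a9, which were past 2-fold with the same sign in both pairs.

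The limma model that takes the genotype difference over both states, with stimulation as the other term and 1 residual degree of freedom, called 0 of the 12456 genes at an adjusted p under 0.05. The smallest adjusted p was 0.866, and 667 genes (5.35%) had an unadjusted p under 0.05. By limma, Ifitm2 had the smallest unadjusted p, 0.00011, with a log2 difference of −1.86 (SE 0.15) and an adjusted p of 0.866. Havcr1 followed with a difference of −1.44 (limma, unadjusted p = 0.000572, adjusted p = 0.866). In resting Tilcara both Ifitm2 and Havcr1 lay below the floor, at 3.19 and 3.07. This model measures how alike the pairs were, not the spread between mice.

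**Figure D5:**
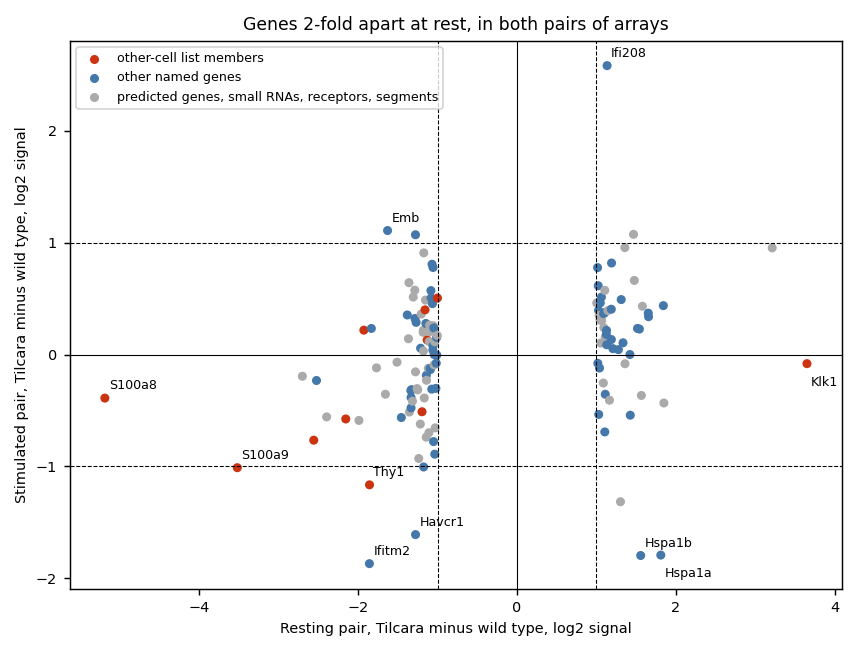
Tilcara minus wild-type difference (log2) at rest (horizontal) against the same after stimulation (vertical) for the 135 genes 2-fold apart at rest, 1 point per gene coloured by kind, with dashed lines at 2-fold. The 7 genes past 2-fold with the same sign in both pairs include Ifitm2 (−1.86 at rest) and Ifi208 (1.13 at rest), and 5 genes, Hspa1a and Hspa1b among them, lie past 2-fold with opposite signs.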

How the data were processed

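The authors deposited log2 signals of 41345 Affymetrix probe sets on 4 arrays, per the submitters' processing notes the output of RMA, for which no version or settings are given. RMA corrects background, applies quantile normalization and summarises probes, so array medians lay between 3.73 and 3.79 and a change in total RNA per cell cannot be seen. The number of arrays, 1 per group, limits the precision. Groups came from the sample titles.

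By the platform's annotation 23521 probe sets carried 1 symbol, 1814 several and 16010 none, and the first kind alone was named. The gene IDs of 23328 were found in RefSeq's mouse table, and 0 had another symbol there. Each gene was read from its brightest probe set by mean of the 4 arrays. Differences were taken in Python 3.11.15 with pandas 2.3.3, and a 2-fold difference was a call of size without a test. limma 3.58.1 (R 4.3.3) fitted stimulation and genotype over the 4 arrays with Benjamini-Hochberg adjustment over 12456 genes and a threshold of 0.05; it was tested on simulated data.

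The 26 gene lists, the named genes and the comparison were chosen with earlier results of these data known. Named genes were Prkcb; the 15 largest differences each way of at least 1, and the 10 largest among genes of at least 5 in both resting arrays, without predicted genes, small RNAs, olfactory and vomeronasal receptors and receptor segments; 2-fold members of other-cell lists; all B-1 members; up to 5 members of every other list; Klk genes; and genes 2-fold in both pairs. Other genes, such as Alox5ap, Pcna, Malt1 and the microRNA genes, were chosen after their values were seen. Promoter and microRNA sequences are RefSeq's on GRCm38.p6; the sources used here do not give the build behind the array's annotation. Alternatives were 2 further scalings, the mean over probe sets, other filters on low signals, an offset before the log, a 1.5-fold size, and leaving out other-cell genes.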

Additional observations from a re-analysis of the deposited data

Results flagged for a closer look

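At 2-fold or more, 5 genes had opposite signs in the resting and stimulated pairs, and 4 of them exceeded the floor in each pair; the fifth, Mir3473c, lay below it in both stimulated arrays. Hspa1a was higher in Tilcara by 1.81 at rest and differed by −1.79 after stimulation. Hspa1b, its near copy, was higher by 1.56 at rest and differed by −1.80 after stimulation. Emb, which encodes the adhesion protein embigin, differed by −1.63 at rest and by 1.11 after stimulation, and its second probe set differed by −0.73 at rest. Trim43c differed by −1.28 at rest and by 1.07 after stimulation. With 1 array per group these differences between states were not tested.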

How the results depend on the processing

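Of the 53 higher and 82 lower genes, a floor of 5 left 35 and 47, an offset of 16 before the log left 9 and 12, and a 1.5-fold size gave 413 and 422. With a signal of at least 5 in both resting arrays they were 15 and 12, and without genes apart in 1 array 16 and 29; both were chosen after seeing the data. Centring each array gave 68 and 68, cyclic loess 63 and 72, and no filter 68 and 118. The median over all genes moved to at most 0.07 under these scalings. With a floor of 5 the neutrophil median moved from −0.45 to −1.002 and the platelet median from 0.24 to 0.59. None of the 51 named genes past 2-fold had another sign under the alternatives run, but list medians near 0 crossed it: conventional dendritic cell (−0.18 to 0.02), B cell identity (−0.06 to 0.05), antigen receptor and PKC signalling (−0.01 to 0.06), interferon-stimulated (−0.01 to 0.05), MHC class II (−0.02 to 0.10) and housekeeping genes (−0.0037 to 0.13). limma called 0 genes under every alternative, with 471 to 1138 genes at an unadjusted p under 0.05 and a smallest adjusted p of 0.419. No paired analysis was possible because each group is 1 array and the labels carry no replicate numbers. Weak signals limit depth here: below a mean of 4, 2.46% of genes passed 2-fold, and at 8 or above 0.204%.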

Other observations

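Probe sets with no symbol passed 2-fold more often than named genes did (1.08%). The share of named genes takes the brightest probe set of each, and the kinds were not matched for signal, so these shares are not directly comparable. Of 8875 probe sets with no symbol and a signal above the floor in some array, 491 were 2-fold higher in resting Tilcara and 754 were 2-fold lower, together 14.03%, and their differences ran from −4.17 to 4.91. Of 1040 probe sets with several symbols, 3 were higher and 7 lower, 0.962%. Among small RNA genes the largest resting difference was that of the small nucleolar RNA gene Snord61, at 3.32 in wild type and 6.54 in Tilcara, and 2.06 and 3.02 after stimulation. Snord13, one of the brighter small nucleolar RNA genes, read 10.09 and 11.10 at rest and 9.89 and 10.35 after stimulation.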
